A study of Homo sapiens with 12 samples.

Results

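This account describes 10 genes that encode RNA-binding regulators of neural alternative splicing: RBFOX1, RBFOX2, RBFOX3, NOVA1, NOVA2, PTBP1, PTBP2, SRRM3, SRRM4 and QKI. They were chosen by name as regulators of neural splicing, with earlier results of these data known, and all 10 were found among the 59653 gene symbols of the deposited count table. The libraries were made from total RNA of human neurons that had been differentiated from induced pluripotent stem cells of IMR-90, a fibroblast line. The siNC group (6 libraries) received a negative control siRNA, and the siZCC group (6 libraries) received an siRNA against ZCCHC17, a zinc knuckle protein. All 12 libraries share this 1 line. The titles also hold the letters NPC, which no label spells out. Nothing in the labels says that replicates were separate cultures, so the p-values measure only the spread between these libraries, which may be technical. The comparison asked whether the genes for these regulators changed in amount when ZCCHC17 was reduced, in a series whose title concerns neuronal splicing.

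The regulators act on one another and on a shared stage of neuronal differentiation. RBFOX proteins bind UGCAUG and NOVA proteins bind clusters of UCAU in pre-mRNA, and both promote or repress exons according to where they bind. PTBP1 binds pyrimidine-rich RNA and holds neuronal exons out of mRNA in progenitors and non-neural cells; neurons lower PTBP1 through miR-124 and raise its paralog PTBP2, which in turn falls as neurons mature. SRRM4 and SRRM3 promote the inclusion of neuronal microexons, and SRRM4 switches the mRNA of the repressor REST to a less active form. QKI binds ACUAA elements and is known for its role in glia and neural stem cells. RBFOX3 is the antigen known as NeuN, a marker of mature neurons.

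PTBP1 and PTBP2 also control their own amounts through a short exon whose skipping shifts the reading frame and sends the mRNA to nonsense-mediated decay. PTBP1 protein promotes the skipping of this exon in PTBP2, which is why the pair is called a switch, and the exons are shown for that reason. In the GENCODE v29 annotation of GRCh38, the 34-base exon lies in PTBP1 on the plus strand at chr19:807869-807902 and in PTBP2 on the plus strand at chr1:96806419-96806452. It is in 6 of 21 annotated PTBP1 transcripts and in 6 of 11 annotated PTBP2 transcripts. The PTBP2 exon differed from that of PTBP1 at 9 of 34 bases (73.5% identity), and capitals mark those bases.
PTBP1: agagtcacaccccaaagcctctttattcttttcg
PTBP2: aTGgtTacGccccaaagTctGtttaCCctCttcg
The counts are per gene and do not show whether the exon was included, and splicing was not analysed here.

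The RBFOX genes are shown next because they are paralogs whose levels lay far apart in these cells. The exon printed is a 93-base exon of the RNA recognition motif that all 3 genes share. It lies in RBFOX2 on the minus strand at chr22:35768257-35768349, in RBFOX1 on the plus strand at chr16:7595549-7595641 and in RBFOX3 on the minus strand at chr17:79103162-79103254 (GRCh38). Capitals mark bases that differ from RBFOX2: 6 in RBFOX1 (93.5% identity) and 25 in RBFOX3 (73.1% identity).
RBFOX2: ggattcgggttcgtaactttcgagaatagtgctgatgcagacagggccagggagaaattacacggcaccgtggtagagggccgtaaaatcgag
RBFOX1: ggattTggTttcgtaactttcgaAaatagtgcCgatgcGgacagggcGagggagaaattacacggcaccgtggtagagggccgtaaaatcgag
RBFOX3: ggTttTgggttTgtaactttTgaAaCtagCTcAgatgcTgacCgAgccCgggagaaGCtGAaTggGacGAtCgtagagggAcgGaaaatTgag
Over the annotated transcripts, 0 of 10621 distinct 50-base words of RBFOX1 occurred in those of RBFOX2, and 0 of 9953 words of RBFOX3. The same count was 0 of 13076 for PTBP2 against PTBP1, 0 of 10126 for NOVA1 against NOVA2 and 0 of 8849 for SRRM4 against SRRM3. The authors' handling of reads that map to several places is not given in the sources used here.

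The siNC libraries held 90755953 to 120023356 counts each and the siZCC libraries 76115083 to 105389055. ZCCHC17, the target, had a median of 57.2 CPM (the count relative to the size of its library) in siNC and lay between 9.37 and 10.6 CPM in siZCC, with all siZCC libraries below all siNC libraries. The libraries of each group fell into 3 with high and 3 with low counts of the cytokine gene IL1B, from 2 to 1512 counts in all, which no label explains. The members that passed are therefore also given within each of these sides.

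Levels were first compared per length, as CPM per kb of annotated exon. In siNC the order was QKI (49.0 ± 2.99, SD, n = 6), RBFOX2 (43.1 ± 2.13), PTBP1 (27.3 ± 0.880), NOVA1 (21.7 ± 0.996), NOVA2 (20.7 ± 0.815), PTBP2 (6.10 ± 0.107), SRRM3 (5.52 ± 0.385), SRRM4 (3.76 ± 0.302), RBFOX3 (0.129 ± 0.0150) and RBFOX1 (0.0310 ± 0.00352). QKI overlapped RBFOX2 in range, and NOVA1 overlapped NOVA2; the other neighbours in this order did not overlap. QKI, RBFOX2, PTBP1, NOVA1 and NOVA2 lay between percentile 91.1 (NOVA2) and percentile 97.4 (QKI) of the genes kept that had an annotated length. RBFOX3 stood at percentile 9.97 and RBFOX1 at percentile 1.38.

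**Figure D1:**
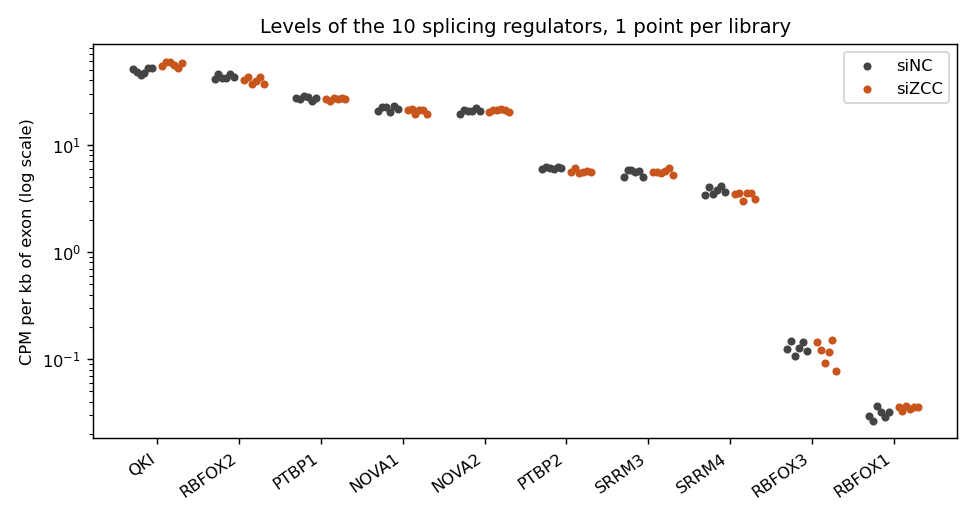
Level of each gene in CPM per kb of exon (log axis), 1 point per library, siNC in grey and siZCC in orange. RBFOX3 and RBFOX1 lie far below the other 8 genes in every library, and the groups overlap or lie close together for all 10.

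Within the RBFOX family RBFOX2 accounted for nearly all the signal. Its level per kb was 334 times that of RBFOX3 and 1390 times that of RBFOX1 in siNC. RBFOX1 rested on 26 to 44 counts per library and RBFOX3 on 73 to 172, against 29586 to 55137 for RBFOX2. In the PTBP pair, PTBP1 stood 4.48 times above PTBP2 per kb in siNC and 4.72 times in siZCC. SRRM3 exceeded SRRM4 by 1.47 times in siNC, and NOVA1 and NOVA2 were close to equal (1.05 times). Lengths were taken over all annotated exons, so a gene whose long exons are not used is understated.

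The marker genes of the culture were read beside these levels. All 16 neuron markers were detected, with MAP2, a dendritic microtubule protein, at 1027 ± 104 CPM (SD, n = 6) in siNC. Neural progenitor markers were also abundant, with VIM, an intermediate filament of progenitors and glia, at 3550 ± 109 CPM, and the astrocyte filament GFAP stood at 616 ± 82.0 CPM. TOP2A, a topoisomerase of dividing cells, was at 206.5 ± 14.9 CPM. Of the oligodendrocyte markers CNP was highest (268 ± 5.96 CPM), whereas SOX10 and MOG had 0 to 8 and 0 to 6 counts per library. The 4 endothelial and immune markers kept summed to 1.98 to 3.47 CPM in siNC. In such bulk RNA, fewer cells of a type and less RNA per cell cannot be told apart, and the levels above are averages over whatever cells each culture held.

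Between the groups, few members changed. Of the 10 genes, 2 passed an adjusted p of 0.05: QKI was higher and PTBP2 was lower in siZCC (quasi-likelihood test of edgeR, p-values adjusted by Benjamini-Hochberg over 24671 genes). That is 20% of the members, against 22.2% of all genes kept (5481 genes), and by direction 11.4% of all genes were higher and 10.8% lower. The members' share is near this background. Of the 9053 genes that averaged 20 CPM or more, 32.1% passed, against 2 of the 8 members at that level. At an unadjusted p of 0.05, RBFOX2 and SRRM4 passed as well, giving 40% of the members against 34.4% of all genes. The median log2 fold change of the members was -0.05 (all genes kept: -0.002). The groups were free of overlap in 0 of the 10 members, against 9.74% of all genes.

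**Figure D2:**
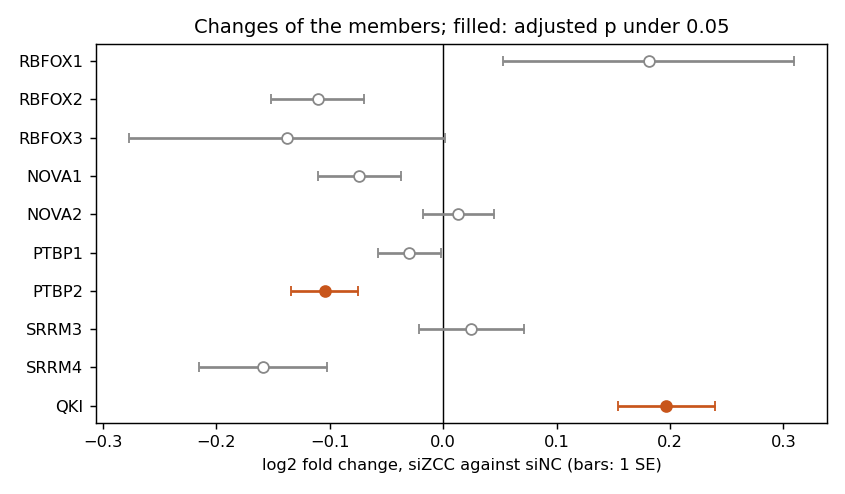
Log2 fold change of each member, siZCC against siNC, with bars of 1 SE; filled points passed an adjusted p of 0.05. QKI and PTBP2 are filled, and RBFOX1 and RBFOX3 have the widest bars.

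The QKI gene spans 163414000 to 163578596 on the plus strand of chromosome 6. It ran from 782 to 902 CPM in siNC (median 856) and from 895 to 1030 CPM in siZCC (median 984). In 5 of 6 siZCC libraries QKI lay above every siNC library, and siZCC replicate 5, at 895 CPM, fell below siNC replicates 5 and 6. QKI rose by 14.6%, or 0.20 on the log2 scale (SE 0.0428, edgeR adjusted p 0.00337), and a two-sided exact permutation test of its mean log2 CPM gave p = 0.00649. It passed under all 22 other ways of processing or leaving out libraries, with log2 fold changes of 0.17 to 0.22. Within the low IL1B libraries it was 0.24 (SE 0.0454, edgeR adjusted p 0.0136), and within the high IL1B libraries 0.15 (SE 0.0537, edgeR adjusted p 0.111), with 3 against 3 libraries in each fit; the difference between the sides was not tested.

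Genes of cell types that use QKI were measured beside it. Of 8 astrocyte markers 3 were higher and 1 lower in siZCC, or 50% against 22.2% of all genes: ALDOC, a glycolytic enzyme, rose by 0.98 (SE 0.0877) and SLC1A3, a glutamate transporter, by 0.30 (SE 0.0526) on the log2 scale, while the water channel AQP4 fell by 0.21 (SE 0.0575). GFAP, at 0.09 (SE 0.109), did not pass. The summed level of these 8 genes ran from 1640 to 1860 CPM in siNC and from 1700 to 2030 CPM in siZCC. Of 10 progenitor markers 3 were higher and 1 lower, or 40%: SOX2, a transcription factor of neural stem cells, rose by 0.20 (SE 0.0280) and HES5, a Notch target, by 0.35 (SE 0.0790), whereas FABP7, a fatty acid binding protein of radial glia, fell by 0.31 (SE 0.0463). Their sum ran from 6230 to 6650 and from 6280 to 6820 CPM, with VIM at 0.02 (SE 0.0296). The part of these cell types in the QKI result was not tested. In edgeR's quasi-likelihood test the adjusted p of the 6 genes said to have changed was at most 0.0150.

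The PTBP2 gene spans 96721665 to 96823738 on the plus strand of chromosome 1. It ran from 77.6 to 80.8 CPM in siNC (median 78.7) and from 71.2 to 79.3 CPM in siZCC (median 72.7). In 5 of 6 siZCC libraries PTBP2 lay between 71.2 and 73.0 CPM, below every siNC library, and siZCC replicate 2, at 79.3 CPM, lay within the siNC range. PTBP2 fell by 6.99%, a log2 fold change of -0.10 (SE 0.0292, edgeR adjusted p 0.0161), and the two-sided exact permutation p was 0.0108. Without siZCC replicate 2 the log2 fold change was -0.13 (SE 0.0240, edgeR adjusted p 0.00149). With 3 against 3 libraries it did not pass within either side of the IL1B counts, at -0.13 (edgeR adjusted p 0.0529) in the high and -0.08 (edgeR adjusted p 0.359) in the low libraries.

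PTBP1, the partner in this switch, did not pass. It ran from 178 to 195 CPM in siNC (median 189) and from 176 to 188 CPM in siZCC (median 186), so the groups overlapped. Its log2 fold change was -0.03 (approximate 95% interval -0.08 to 0.02; edgeR's quasi-likelihood test, adjusted p 0.489). With GC content and transcript length corrected for, it was -0.07 (SE 0.0247, edgeR adjusted p 0.0386), the only one of the 22 other settings in which PTBP1 passed. The log2 ratio of PTBP2 to PTBP1 counts was -1.25 ± 0.0680 in siNC and -1.33 ± 0.0870 in siZCC (SD, n = 6 each), a difference of -0.08, and 5 of the siZCC libraries lay between -1.39 and -1.34. The same siZCC replicate 2 stood at -1.15, with the highest PTBP2 and the lowest PTBP1 (176 CPM) of its group.

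Neuronal transcripts that PTBP1 is known to lower, through retained introns or exons that trigger decay, were read next. Of 6 such genes 1 rose and 1, PTBP2 itself, fell, with a median log2 fold change of -0.02; this share of 33.3% is near the 32.1% of all genes at 20 CPM or more. DLG4, which encodes the postsynaptic scaffold PSD-95, rose from 172 ± 7.75 to 192 ± 6.08 CPM (SD, n = 6 each; log2 fold change 0.16, SE 0.0327, edgeR adjusted p 0.00264), with every siZCC library above every siNC library. The GABA-B receptor subunit GABBR1 had a log2 fold change of 0.09 (SE 0.0370), the vesicle protein VAMP2 0.02 (SE 0.0384), its partner SNAP25 -0.08 (SE 0.0492) and the kinesin KIF5A -0.06 (SE 0.0302). These 4 had adjusted p-values of 0.105 or above in edgeR's quasi-likelihood test.

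RBFOX2, the predominant family member here, ran from 408 to 459 CPM in siNC (median 424) and from 373 to 427 CPM in siZCC (median 400). In 4 of 6 siZCC libraries it lay below every siNC library. Its log2 fold change of -0.11 (SE 0.0408) just missed the threshold in edgeR's quasi-likelihood test (adjusted p 0.0606). It passed in 8 of the 22 other settings, with log2 fold changes between -0.13 and -0.09 in all of them, and leaving out siNC replicate 1 or siZCC replicate 2 or 5 brought it past the threshold (edgeR adjusted p 0.0483, 0.0333 and 0.0345). RBFOX3 ran from 1.06 to 1.46 CPM in siNC and from 0.774 to 1.48 CPM in siZCC, with a log2 fold change of -0.14 (SE 0.139, edgeR adjusted p 0.527), and RBFOX1 from 0.271 to 0.372 and from 0.333 to 0.368 CPM, with 0.18 (SE 0.128, edgeR adjusted p 0.388). The approximate 95% intervals were -0.41 to 0.13 for RBFOX3 and -0.07 to 0.43 for RBFOX1. The two-sided exact permutation test of mean log2 CPM, unadjusted, gave p = 0.355 for RBFOX3 and p = 0.0303 for RBFOX1, whose counts of 26 to 44 per library leave a wide counting error. Leaving out siZCC replicate 6 moved RBFOX3 to -0.05 (SE 0.123), and it was 0.13 (SE 0.159) within the high and -0.43 (SE 0.168) within the low IL1B libraries, where it did not pass (edgeR adjusted p 0.664 and 0.154). All 6 siZCC libraries of RBFOX1 lay within the siNC range.

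SRRM4 ran from 30.4 to 36.8 CPM in siNC (median 32.8) and from 26.3 to 31.7 CPM in siZCC (median 31.1). Only siZCC replicates 3 and 6, at 26.3 and 27.4 CPM, lay below every siNC library. Its log2 fold change of -0.16 (SE 0.0562) missed the threshold in edgeR's quasi-likelihood test (adjusted p 0.0516) and passed in 10 of the 22 other settings, among them the fits that left out siNC replicate 1, siNC replicate 3 and siZCC replicate 2 (edgeR adjusted p 0.0343, 0.0386 and 0.0473). SRRM4 was -0.075 (SE 0.0569, edgeR adjusted p 0.459) within the high and -0.25 (SE 0.078, edgeR adjusted p 0.0855) within the low IL1B libraries. The difference between the sides was not tested. SRRM3 ran from 34.6 to 40.4 CPM in siNC and from 35.7 to 42.1 CPM in siZCC (log2 fold change 0.02, approximate 95% interval -0.07 to 0.12, edgeR adjusted p 0.756). The log2 ratio of SRRM4 to SRRM3 counts was -0.19 ± 0.102 in siNC and -0.37 ± 0.0840 in siZCC (SD, n = 6 each), with ranges of -0.39 to -0.10 and -0.51 to -0.30 that overlap through siNC replicate 3.

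NOVA1 and NOVA2 did not pass. NOVA1 ran from 205 to 230 CPM in siNC (median 220.0) and from 195 to 219 CPM in siZCC (median 211), with a log2 fold change of -0.07 (SE 0.0366, edgeR adjusted p 0.166). NOVA2 ran from 169 to 190 CPM in siNC and from 174 to 189 CPM in siZCC, with 0.01 (approximate 95% interval -0.05 to 0.07, edgeR adjusted p 0.810). The directions of NOVA2 and SRRM3 flipped under the GC and length correction, to -0.02 and -0.05 on the log2 scale, where neither passed.

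**Figure D3:**
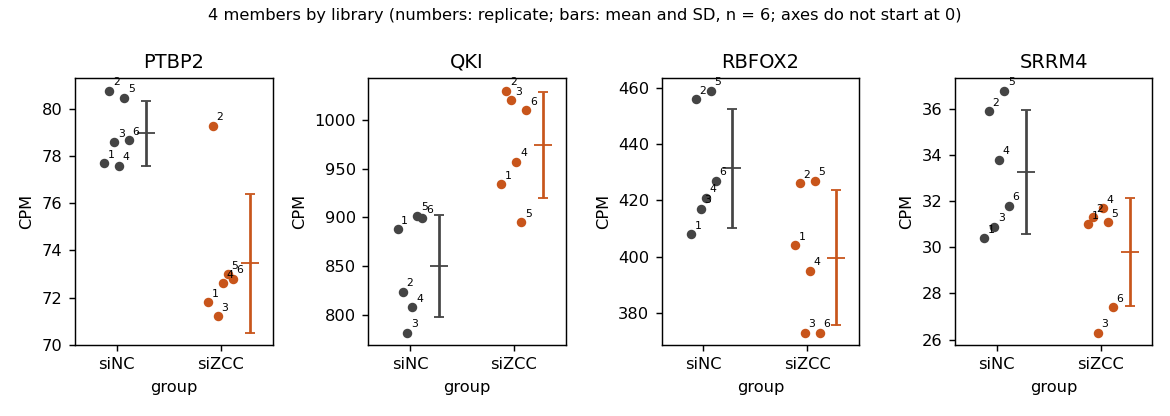
CPM of PTBP2, QKI, RBFOX2 and SRRM4 in each library (numbers give the replicate) with mean and SD (n = 6 per group); axes do not start at 0. The PTBP2 value of siZCC replicate 2 lies at 79.3 CPM among the siNC values, and siZCC replicates 3 and 6 are lowest for RBFOX2 and SRRM4.

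Within each group, 2 libraries stood apart for several members, though not for the same members in both groups. Among siNC libraries, replicates 2 and 5 held the highest values of RBFOX2 (456 and 459 CPM), RBFOX3 (1.46 and 1.42 CPM), PTBP2 (80.8 and 80.5 CPM), NOVA2 (184 and 190 CPM) and SRRM4 (35.9 and 36.8 CPM), and the lowest values of PTBP1 (185 and 178 CPM). Among siZCC libraries, replicates 3 and 6 were the lowest for RBFOX2 (373 CPM in both), RBFOX3 (0.914 and 0.774 CPM), NOVA1 (195 CPM in both), SRRM3 (37.4 and 35.7 CPM) and SRRM4 (26.3 and 27.4 CPM). PTBP2, NOVA2 and PTBP1 did not follow this in siZCC, where replicates 3 and 6 were not both at an extreme, nor NOVA1 and SRRM3 in siNC, and QKI did so in neither group. RBFOX1, with few counts, went the other way in siNC, where replicates 2 and 5 were lowest (0.271 and 0.292 CPM). In siZCC, RBFOX1 was highest in replicate 3 (0.368 CPM), and replicate 6 (0.36 CPM) was not at an extreme. The summed level of the 16 neuron markers, which hold no member, was highest in siNC replicates 2 and 5 (5340 and 5490 CPM against 4890 to 5130 in the other siNC libraries). It was lowest in siZCC replicates 3 and 6 (4510 and 4600 CPM against 4940 to 5080 in the other siZCC libraries). Both of these siZCC libraries were on the low IL1B side, as was siZCC replicate 2, whereas siNC replicate 2 was on the high and siNC replicate 5 on the low side. The progenitor sum went the other way, lowest in siNC replicates 2 and 5 (6380 and 6230 CPM) and highest in siZCC replicates 3 and 6 (6710 and 6820 CPM). The astrocyte sum was highest in the same siZCC replicates (1940 and 2030 CPM), though siZCC replicate 4 was close, at 1930 CPM. In siNC the astrocyte sum was lowest in replicates 5 and 3 (1640 and 1690 CPM), with replicate 2 at 1710 CPM. The part of these markers in the members' values was not tested.

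**Figure D4:**
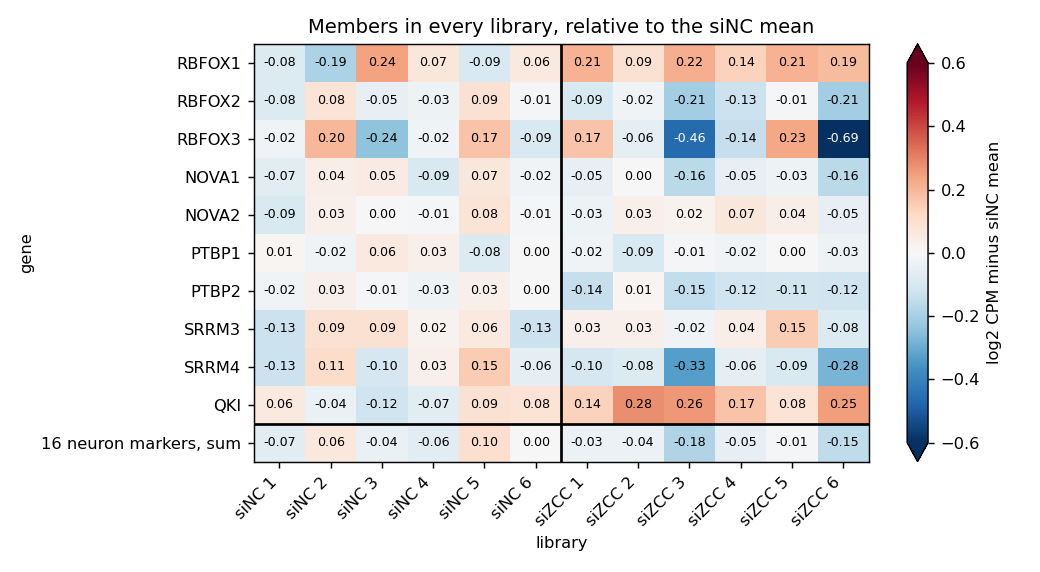
Log2 CPM of each member minus its siNC mean, by library, with the log2 summed CPM of 16 neuron markers in the bottom row; blue is lower and red is higher. siZCC replicates 3 and 6 are lower for RBFOX2, RBFOX3, NOVA1, SRRM4 and the neuron marker sum, and QKI is higher in all siZCC libraries.

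Of the 16 neuron markers 1 was higher and 7 were lower in siZCC, against 11.4% higher and 10.8% lower of all genes, with a median log2 fold change of -0.09 and summed levels of 4890 to 5490 CPM in siNC and 4510 to 5080 CPM in siZCC. SLC17A6, a vesicular glutamate transporter, fell by 0.29 (SE 0.0507), the microtubule protein DCX of young neurons by 0.23 (SE 0.0480) and the neurofilament NEFM by 0.16 (SE 0.0331) on the log2 scale (edgeR adjusted p at most 0.00280), while MAP2 was at 0.01 (SE 0.0555). Of 14 dividing-cell genes 10 fell and 0 rose, or 71.4% against 22.2% of all genes, with a median of -0.27. The mitotic genes CCNB1 (-0.61, SE 0.0410), BIRC5 (-0.51, SE 0.0376) and BUB1 (-0.53, SE 0.0441) had the smallest p-values among them (edgeR adjusted p at most 7.41e-07), and TOP2A fell by 0.24 (SE 0.0464, edgeR adjusted p 0.00143). The part of cell makeup in the values of RBFOX2, SRRM4 and PTBP2 was not tested.

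Other cell types were also counted. Of 8 mesenchymal markers 1 was higher and 4 lower, or 62.5% against 22.2% of all genes. Their summed levels ran from 473 to 815 CPM in siNC and from 358 to 563 CPM in siZCC. The smooth muscle genes TAGLN (-0.75, SE 0.118) and ACTA2 (-0.57, SE 0.0821) fell, and the receptor PDGFRB rose by 0.42 (SE 0.0498), with edgeR adjusted p of at most 2.54e-04. Of 6 oligodendrocyte markers kept 0 were higher and 1 was lower, or 16.7%. PDGFRA, a receptor of oligodendrocyte precursors, fell by 0.64 (SE 0.184, edgeR adjusted p 0.0194) from 0.393 ± 0.0748 CPM, and CNP was at -0.01 (SE 0.0297). None of the 4 endothelial and immune markers kept passed in edgeR's test, and CSF1R, PECAM1, KDR and PTPRC had unadjusted p-values of 0.605, 0.887, 0.257 and 0.639; CSF1R, the most abundant, had a log2 difference of -0.10 (SE 0.197).

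Partners and paralogs of the members form a further list. Of 18 kept (KHDRBS2 was under the filter on low counts), 4 were higher and 6 lower, or 55.6%, against 22.2% of all genes and 32.1% of those with at least 20 CPM. The median log2 fold change was -0.04. HNRNPM, a subunit of the large complex in which RBFOX proteins act, fell from 233 ± 2.49 to 192 ± 12.1 CPM (SD, n = 6 each; log2 fold change -0.28, SE 0.0350). HNRNPH2, of the hnRNP H family, fell by 0.18 (SE 0.0315) and MATR3, matrin 3, a co-regulator of PTBP1 targets, by 0.13 (SE 0.0274) on the log2 scale. In edgeR's quasi-likelihood test the adjusted p of these 3 genes was at most 0.00351, and none of their siZCC libraries reached the siNC range.

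The circuit of REST and miR-124 represses neuronal genes in progenitors and lowers PTBP1 in neurons. It had 0 higher and 6 lower of 22 genes kept, with a median log2 fold change of -0.05. The share that passed in either direction was 27.3%, against 22.2% of all genes. By direction all of that share was lower, where 10.8% of all genes were lower and 11.4% higher. With the GC and length correction the circuit had 2 higher and 7 lower. MIR9-1HG and MIR9-2HG were not matched by symbol. The histone deacetylases HDAC2 and HDAC1, which REST recruits, fell by 0.17 (SE 0.0288) and 0.13 (SE 0.0286), and SS18, a subunit of the progenitor BAF chromatin remodeller, fell by 0.15 (SE 0.0311) on the log2 scale (edgeR adjusted p at most 0.00286). REST itself stood at -0.05 (SE 0.0600, edgeR adjusted p 0.634) and the phosphatase CTDSP1, a miR-124 target, 0.02 (SE 0.0402, edgeR adjusted p 0.808). Of the BAF subunits that exchange at the exit from the cell cycle, the progenitor form ACTL6A fell by 0.16 (SE 0.0405, edgeR adjusted p 0.00828) and the neuronal form ACTL6B was at -0.13 (SE 0.0698, edgeR adjusted p 0.194); their difference was not tested.

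Genes listed as hosts of exons regulated by these proteins passed at shares between 16.7% and 25.0%, near the 22.2% of all genes. These shares were under the 32.1% of genes with at least 20 CPM, a level that not every host reached. Whether each listed gene carries such an exon was not checked. Of 9 NOVA hosts 1 rose and 1 fell: the glycine receptor GLRA2 fell by 0.20 (SE 0.0558) and agrin, AGRN, rose by 0.13 (SE 0.0362). Of 8 RBFOX hosts 2 rose and 0 fell, FGFR2, a fibroblast growth factor receptor, by 0.33 (SE 0.0516) and the vesicle protein VAMP1 by 0.11 (SE 0.0380). Of 9 PTBP hosts 0 rose and 2 fell, the actin-binding proteins ACTN1 by 0.32 (SE 0.0608) and TPM1 by 0.47 (SE 0.0989). Of 15 SRRM4 hosts 1 rose and 2 fell: EHMT2, a histone methyltransferase, rose by 0.11 (SE 0.0363), while AP1S2, a clathrin adaptor, fell by 0.20 (SE 0.0496) and KDM1A, a histone demethylase, by 0.08 (SE 0.0250). Of 6 QKI hosts 0 rose and 1 fell, the adhesion receptor CD44 by 0.56 (SE 0.106).
In edgeR's quasi-likelihood test the adjusted p of these 10 genes was at most 0.0430. Calls of 4 of them were lost when single libraries were left out: VAMP1 missed the threshold in 9 of the 12 fits that left out 1 library (all except siNC replicates 2 and 4 and siZCC replicate 5; edgeR adjusted p up to 0.108), EHMT2 when siNC replicate 1 or 6 was left out, or siZCC replicate 1, 4 or 5 (up to 0.0799), AGRN without siZCC replicate 3 or 4 (0.0540 and 0.0501), and also under the GC and length correction (log2 fold change 0.04, 0.395), and KDM1A without siNC replicate 2 (0.0510). With no filter on low counts VAMP1, KDM1A and EHMT2 also missed it (edgeR adjusted p 0.110, 0.0645 and 0.0520), as did VAMP1 and EHMT2 under upper quartile scaling (0.0599 and 0.0547) and VAMP1 in counts thinned to the smallest total (0.114). A change in the amount of a host gene says nothing of which exons its mRNA held.

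**Figure D5:**
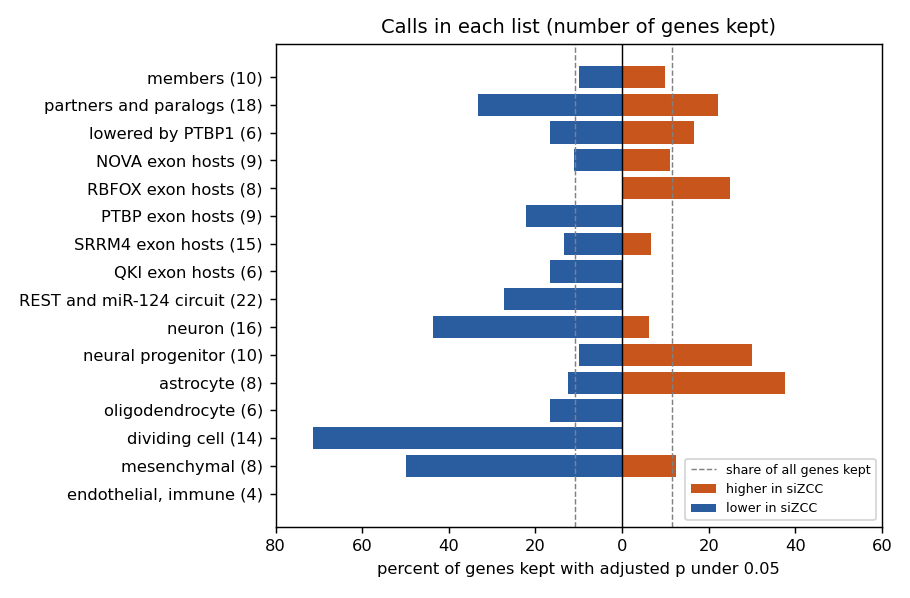
Percent of the genes kept in each list that passed an adjusted p of 0.05, higher in siZCC to the right and lower to the left; dashed lines give the shares of all genes kept, 11.4% and 10.8%. The members' bars end close to the dashed lines. Those of the dividing-cell, mesenchymal and neuron markers reach farthest to the left, and those of the astrocyte and progenitor markers farthest to the right.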

How the data were processed

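The 12 RNA-seq libraries, 6 siNC and 6 siZCC per the titles, were analysed. The authors deposited whole-number counts per gene symbol, 1 column per library, with no normalization. The submitters' processing notes name bcl2fastq 2.17, STAR 2.7.6a, featureCounts 2.0.1 and GRCh38. Which annotation was counted, and with which strand setting, is not given in the sources used here. The labels' protocols name a directional library kit. SRRM4 shares 25 exon bases with an antisense gene and PTBP1 62 with MIR4745.

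Counts were tested in R 4.3.3 with edgeR 4.0.16: filterByExpr defaults (24671 of 59653 genes kept), TMM factors, glmQLFit and glmQLFTest without covariates, Benjamini-Hochberg adjustment over all genes kept, threshold 0.05. The biological coefficient of variation was 6.55%. SE is the log2 fold change divided by the square root of F. CPM values are TMM-scaled; log2 CPM used a prior count of 2. Lengths, positions and exons came from GENCODE v29, which matched 94.9% of genes kept. Permutation tests ran over all 924 assignments of libraries to groups. The fit was first tested on simulated data. Of genes given a log2 change of 0.25 and -0.25, 40% and 52% passed, and 90% of those given a change of 1. Of unchanged genes 0.029% passed. Far fewer genes changed in the simulation than passed here, so these shares need not hold for the members.

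Members and lists were chosen with earlier results of these data known. Named genes were all members, ZCCHC17, up to 3 genes per list that passed, taken by smallest p, every kept gene of the PTBP1-lowered list (1 gene was removed from that list and is not reported here), REST, CTDSP1, ACTL6A, ACTL6B and the most abundant gene of each marker list. Alternatives were DESeq2 size factors, upper quartile scaling, other filters, DESeq2 1.42.0, limma 3.58.1 voom, the replicate block, a GC and length correction, thinning, an IL1B block and leaving out each library; fits within each IL1B side were added after seeing the data. Libraries of a group differed by more than sampling noise in every pair, chi-square divided by its degrees of freedom being 5.15 to 24.9. Figures were drawn with matplotlib 3.10.9.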

Additional observations from a re-analysis of the deposited data

Results flagged for a closer look

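For the members, ZCCHC17, the library total and 5 paralog ratios, the extreme values within each group were set against the remaining ones. In 34 groups of 6, 5 libraries lay farther from their neighbour than the 95% limit of Dixon's test allows, where chance flags about 1 in 20 groups (1.7 here); the quantities are not independent. In siZCC replicate 2, PTBP1 was lowest at 176 CPM (184 to 188 in the other siZCC libraries), PTBP2 was highest at 79.3 CPM (71.2 to 73.0), and the log2 ratio of PTBP2 to PTBP1 was highest at -1.15 (-1.39 to -1.34). In siNC replicate 3, the log2 ratio of SRRM4 to SRRM3 was lowest at -0.386 (-0.188 to -0.0997). The smallest siNC library was replicate 4, with 90755953 counts; the remaining siNC libraries held 109973707 to 120023356.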

How the results depend on the processing

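Of the 10 members, PTBP2 and QKI passed in all 22 other settings listed in the methods (10 ways of processing and 12 single libraries left out). The count of members passing rose from 2 to 4 with upper quartile scaling, DESeq2's Wald test or the replicate block and to 5 with the GC and length correction. Of all genes, 5416, 5974, 4902 and 6405 passed in these settings, in this order, against 5481 in the main fit. The count of members ran from 2 to 4 when 1 library was left out. The additions were RBFOX2, SRRM4 and, with the GC correction, PTBP1, and the cause was not tested. With 3 against 3 libraries, 0 members, 31 list genes and 2043 genes in all passed in the high IL1B libraries (edgeR; 2 members, PTBP2 and QKI, at an unadjusted p of 0.05), and 1 member, 19 list genes and 1602 genes in the low ones (4 members, QKI, RBFOX2, RBFOX3 and SRRM4, at an unadjusted p of 0.05), against 59 and 5481 with all libraries; fewer libraries entered these fits. Leaving out 1 library gave 4484 to 5626 genes and 48 to 58 list genes.

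The direction of some genes turned. The GC and length correction gave NOVA2 -0.015, SRRM3 -0.047 and CTDSP1 -0.012. High IL1B libraries gave RBFOX3 0.13, VIM -0.015, CNP 0.0017 and CSF1R 0.32; low ones SRRM3 -0.007, REST 0.025, CTDSP1 -0.016 and MAP2 -0.032. Leaving out 1 library moved NOVA2 between -0.0039 and 0.03, SRRM3 -0.0018 and 0.043, VAMP2 -0.0015 and 0.034, CTDSP1 -0.0024 and 0.049, MAP2 -0.027 and 0.048, VIM -0.0023 and 0.031, CNP -0.02 and 0.014, and CSF1R -0.2 and 0.01. With all libraries these genes did not pass. No label says that libraries with the same replicate number are paired. Over all genes kept, the correlation of deviations within a number was -0.077 to 0.018, and no siNC library correlated best with its own number. That measure cannot decide on pairing for single genes. With the replicate block the SE fell for RBFOX2 (0.0408 to 0.0312), SRRM4 (0.0562 to 0.0403), RBFOX3, SRRM3 and NOVA2, and it rose for the remaining members. Under the replicate block 4902 genes passed, and VAMP1 (adjusted p 0.0590) and KDM1A (0.0632) did not. RBFOX1, at a mean under 50 counts, was not tested under that filter. RBFOX1 and RBFOX3, with 26 to 172 counts per library, had the widest intervals of the members.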
